A study of Mus musculus with 4 samples.

Results

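The microtubule motors examined here are the kinesin and cytoplasmic dynein genes of the mouse, taken from the expression table by symbol: the numbered kinesins (Kif), the kinesin light chains (Klc), the chains of dynein-1 and dynein-2 (Dync1, Dync2) and the dynein light chains (Dynll, Dynlrb, Dynlt). Of 55414 genes in the table, 68 had such a symbol and 67 of these were protein coding. A count in at least 1 library was found for 63, which are the members described. Kif12, Kif19b, Kif28 and Kif2b were listed at 0 in every library. RNA came from the cerebral cortex of C57BL/6J mice at postnatal day 1. All animals carried floxed alleles of Mkk7, the stress-activated kinase kinase encoded by Map2k7 that acts upstream of JNK. The 2 libraries labelled Control had the genotype Mkk7flox/flox, and the 2 labelled cKO had Mkk7flox/flox with Emx1-Cre, which is active in progenitors of the dorsal telencephalon and inherited by their descendants. Cells of other origin in the cortex, such as interneurons and vascular cells, do not derive from that lineage. Controls carried no Cre, so the presence of Cre and the loss of Mkk7 cannot be told apart. The labels do not say whether libraries came from separate animals. Sex-linked transcripts, given below, differ between the cKO libraries, so those did not come from the same animal. For the Control libraries this is not known, so all p-values measure the spread between these libraries, which may be partly technical.

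Kinesins and dynein are motor proteins that use ATP to walk along microtubules. In axons most kinesins carry cargo toward the synapse, while dynein-1 carries cargo back toward the cell body. In dividing progenitors other kinesins build the spindle and separate chromosomes, and dynein-2 returns material from the tip of the primary cilium. JNK and its scaffold proteins bind kinesin-1, and JNK signalling is known to regulate axonal transport.

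Library totals lay between 19421491 and 22511247 estimated counts, and 17017 genes were tested. Map2k7, the targeted gene, stood at 38.4 and 30.4 CPM, the counts scaled to a common library size, in Control and at 47.9 and 48.2 CPM in cKO, so its level over the whole gene was not lower in cKO (log2 fold change 0.48 ± 0.18, edgeR adjusted p 0.428). The labels do not say which exons are floxed. Xist had 1004 to 1218 counts in 3 libraries and 0 in cKO 3, and the Y-linked Ddx3y had 985 counts in cKO 3 and 0 in the others, so sex differed within the cKO group. The sum over 10 neuronal markers was 7809 to 8081 CPM. Of these 10 markers 6 did not overlap between groups, 3 higher and 3 lower in cKO, against 44.1% of all tested genes. Dcx had 541 and 511 CPM in Control and 627 and 635 CPM in cKO. Rbfox3 went the other way, with 152 and 135 CPM in Control and 125 and 124 CPM in cKO. Markers of striatal neurons summed to 529 and 379 CPM in Control against 144 and 141 CPM in cKO, and all 12 had negative differences. Inhibitory neuron markers summed to 954 and 891 CPM in Control and 797 and 672 CPM in cKO, while 11 dorsal excitatory markers summed to 1435 and 1671 CPM in Control and 1894 and 1889 CPM in cKO. Markers of intermediate progenitors, a dividing class, summed to 119.9 and 128 CPM in Control and 183 and 206 CPM in cKO, and those of astrocytes to 1105 and 1203 CPM in Control and 854 and 923 CPM in cKO. Meningeal fibroblast markers summed to 215 and 260 CPM in Control and 338 and 308 CPM in cKO. In bulk tissue, fewer cells of a type and less RNA per cell cannot be told apart, and the part of these shifts in any motor gene's value was not tested.

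Levels of different genes were compared in TPM, transcript abundances that divide counts by length and have the same sum in each library. The 63 motor genes together summed to 5433 to 5596 TPM in a library. The small dynein light chains held most of that sum, with 66.6% and 62.9% of motor TPM in Control and 70.0% and 61.8% in cKO. Transport kinesins held 12.8% and 12.7% in Control and 10.7% and 14.7% in cKO, kinesin light chains 8.21% to 10.2%, and dynein-1 chains 6.52% to 10.3%. The upper end of dynein-1, in Control 3, rested on a doubtful Dync1li2 value described below, and with Dync1li2 left out of both sums the range was 6.14% to 8.21%. The mitotic kinesins held 0.674% to 1.10%. Single genes spanned a wide range: 8 had a mean of at least 100 TPM and 11 a mean below 1 TPM. In order, the 8 most abundant were Dynll1, Dynlrb1, Dynlt1b, Klc1, Kif1a, Dynlt1f, Kif3a and Dync1i1. The places of Dynlt1b and Dynlt1f are uncertain, since their reads are shared with near-identical copies. One of these, the pseudogene Dynlt1-ps1, was listed at 1434 and 1190 TPM in Control and 1763 and 1299 TPM in cKO, above Dynll1 in each library. Neighbours in that order often overlapped between libraries: Kif1a had 174 to 276 TPM and Dynlt1f 192 to 246 TPM.

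**Figure D1:**
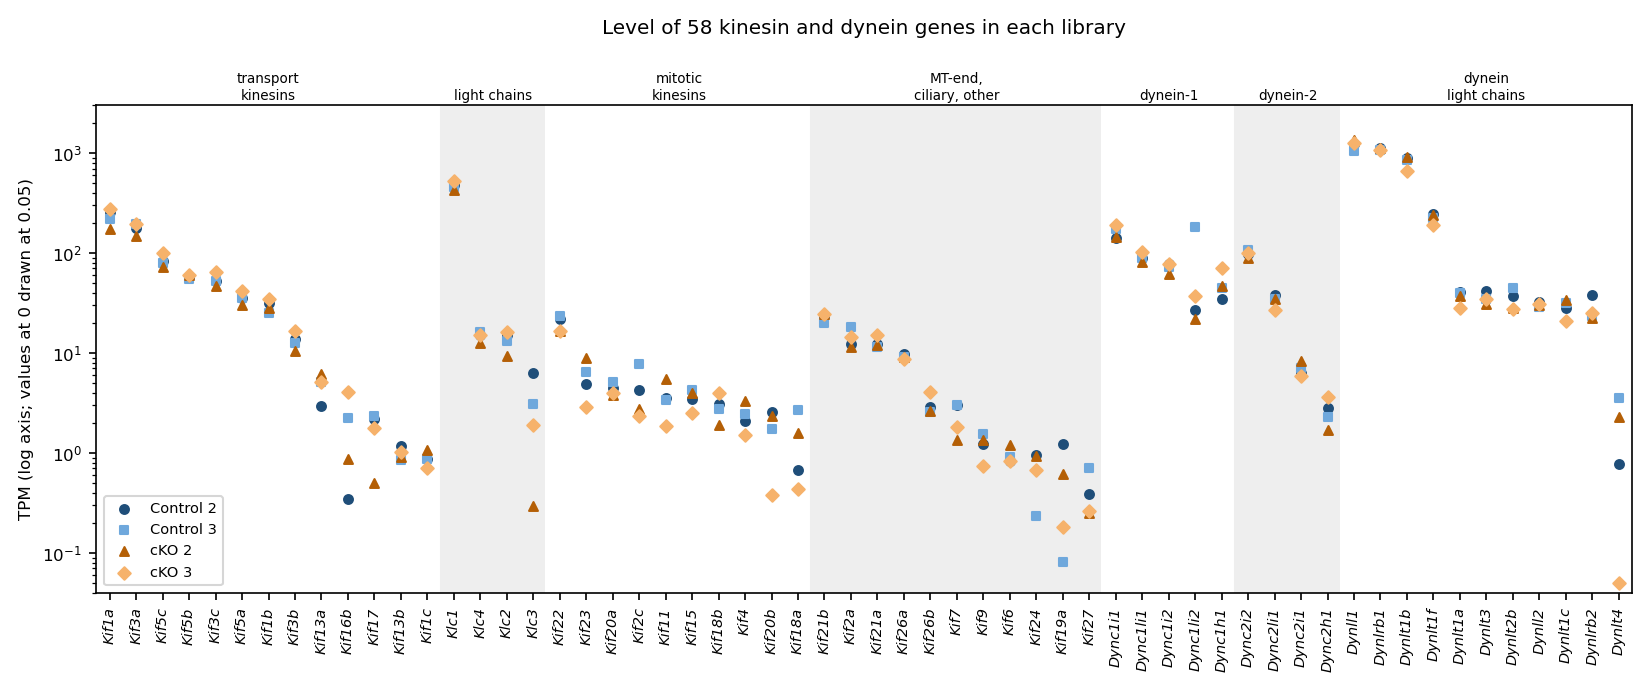
Level of each of the 58 tested motor genes in TPM on a log axis, with 1 point per library and genes grouped by role. Light chains of dynein, Klc1 and the neuronal transport kinesins sit highest, mitotic kinesins lie mostly between 1 and 10 TPM, and the single high point of Dync1li2 belongs to Control 3.

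No motor gene passed the test for a difference between genotypes. In edgeR's quasi-likelihood test with Benjamini-Hochberg adjustment over all genes tested, 0 of 58 tested motor genes were called (0.047% of all tested genes were, 0.00588% higher and 0.0411% lower in cKO), and DESeq2 and limma-voom also called 0. The edgeR adjusted p-values of motor genes ran from 0.325 to 0.991. At an unadjusted edgeR p below 0.05 there were 7 motor genes, or 12.1%, against 10.9% of all tested genes (5.28% higher and 5.66% lower in cKO). Of the 7, Kif15 and Dync1h1 had higher values in cKO, and Kif22, Kif2c, Kif7, Kif20b and Klc3 lower ones. The Control and cKO libraries did not overlap in 20 motor genes, or 34.5%, against 44.1% of all tested genes. By direction, 7 (12.1%) were higher in cKO, against 22% of all tested genes, and 13 (22.4%) were lower, against 22.2%. The log2 fold change, cKO over Control, was positive in 22 (37.9%) and negative in 36, against 49.8% positive over all tested genes, with a median of -0.11 beside -0.0021 over all tested genes. The share of motor genes with positive differences was thus below that of all genes; these shares are descriptions, and motors as a class were not tested.

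The intervals show how large a difference the data still allow. For 23 of 58 motor genes (39.7%) the whole 95% interval of the fold change lay within 1.5-fold in either direction, against 24.8% of all tested genes. All 23 were among the 32 motor genes with a mean of at least 20 CPM. Those 32 had a median standard error of 0.15 on the log2 scale and a median absolute difference of 0.10, and the other 26 had a median standard error of 0.43. Low-level members such as most mitotic and ciliary kinesins were thus measured too coarsely for a moderate difference to be told from none.

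**Figure D2:**
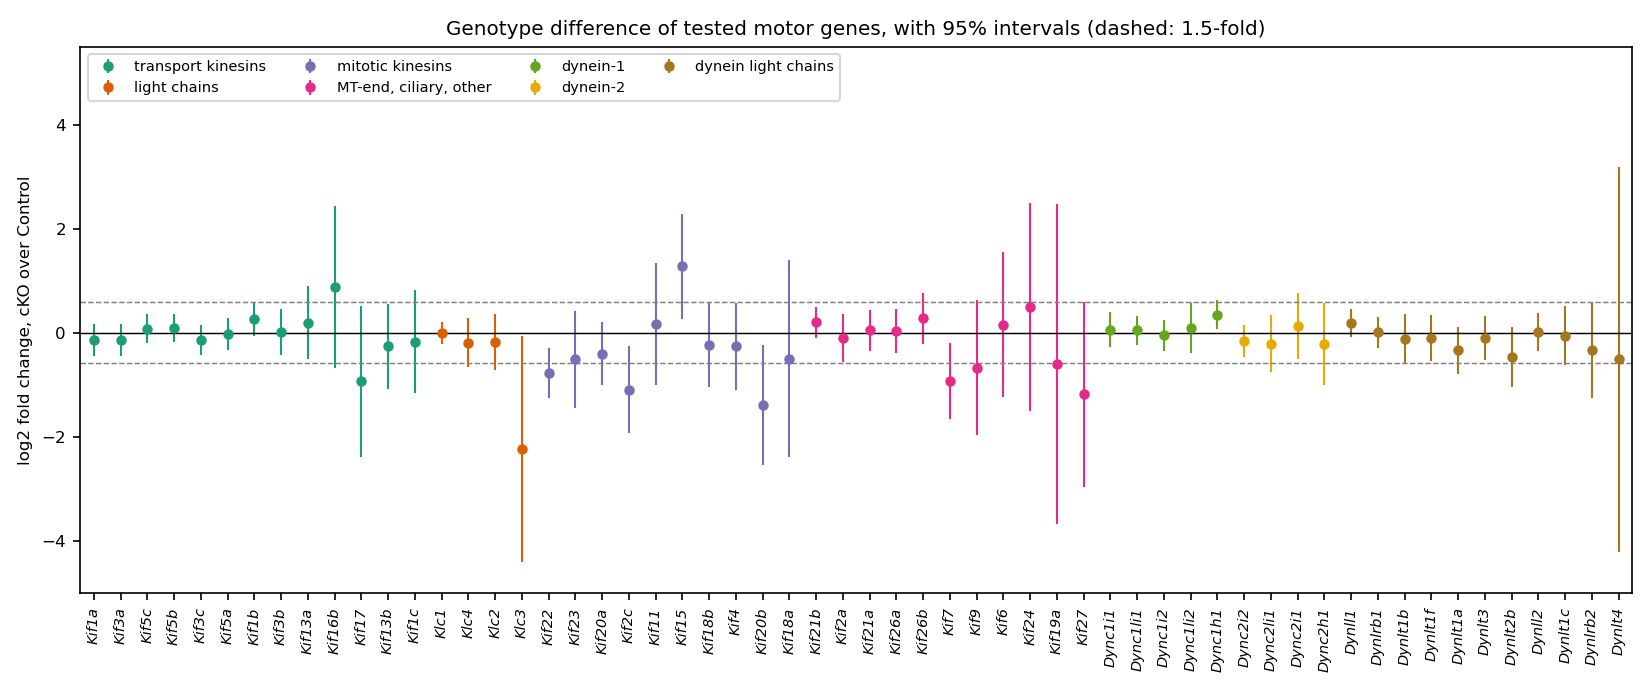
Log2 fold change of each tested motor gene, cKO over Control, with its 95% interval from edgeR; dashed lines mark 1.5-fold. Abundant transport kinesins and most dynein-1 chains have short bars around 0, while the bar of Dync1h1 lies above 0. Bars widen toward the low-level members of each role group.

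Transport kinesins move vesicles, organelles and synaptic precursors, and none of the 13 tested differed by genotype at an unadjusted p below 0.05. Differences were positive in 6 and negative in 7, with a median log2 fold change of -0.02. Kif1a, the carrier of synaptic vesicle precursors and dense-core vesicles (chr1:92943186-93029673, GRCm39), was the most abundant at 257 and 221 TPM in Control and 174 and 276 TPM in cKO. Its scaled counts were 555 and 506 CPM in Control and 427 and 539 CPM in cKO. The lowest and the highest TPM both came from cKO libraries, and the log2 fold change of -0.14 ± 0.13 (SE) had an edgeR adjusted p of 0.746. Kif1b, its close relative that carries mitochondria and synaptic vesicle precursors, had 193 and 160 CPM in Control and 198 and 224 CPM in cKO. These groups did not overlap, with a log2 fold change of 0.26 ± 0.14 and an interval from -0.07 to 0.58 (edgeR adjusted p 0.544).

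Kinesin-1 is the motor bound by the JNK-interacting proteins, and its 3 heavy chains Kif5a, Kif5b and Kif5c were measured with small errors. Kif5c, enriched in neurons, had 437 and 419 CPM in Control and 413 and 493 CPM in cKO. Kif5b, the heavy chain made in most tissues, had 143 and 143 CPM in Control and 157 and 150 CPM in cKO. Kif5a, the neuron-specific chain, had 177 and 181 CPM in Control and 160 and 193 CPM in cKO. Only Kif5b did not overlap between groups, and the log2 fold changes were 0.08 ± 0.12, 0.10 ± 0.11 and -0.02 ± 0.13 for Kif5c, Kif5b and Kif5a. The interval of Kif5c ran from -0.19 to 0.36. Kinesin-2 pairs Kif3a with Kif3b or Kif3c and serves both cilia and axons. Kif3a had 229 and 231 CPM in Control and 188 and 229 CPM in cKO (log2 fold change -0.14 ± 0.13, edgeR adjusted p 0.731). The Kif3a values of Control 2 and cKO 3 were nearly equal, so the difference rested on cKO 2. Kif3c and Kif3b had log2 fold changes of -0.14 ± 0.12 and 0.01 ± 0.19. Kif16b, which moves early endosomes, had 1.68 and 6.40 CPM in Control and 4.53 and 10.3 CPM in cKO. Kif17, a dendritic carrier of NMDA receptor vesicles, had 4.07 and 4.06 CPM in Control and 1.00 and 3.24 CPM in cKO. Both are low, and their log2 fold changes of 0.88 ± 0.66 and -0.93 ± 0.62 had edgeR adjusted p-values of 0.669 and 0.624. Without 1 library in turn they ran from 0.16 to 2.14 for Kif16b and from -2.02 to -0.33 for Kif17.

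Kinesin light chains link kinesin-1 heavy chains to cargo and adaptors. All 4 had negative differences, but that of Klc1 was close to 0. Klc1, the main neuronal light chain (chr12:111725283-111774278), had 476 and 460 TPM in Control and 424 and 519 TPM in cKO. In scaled counts it stood at 709 and 710 CPM in Control and 690 and 725 CPM in cKO, so the Control values lay between the cKO values. Its log2 fold change was -0.01 ± 0.09, with an interval from -0.21 to 0.20. Klc4 had 23.4 and 26.4 CPM in Control and 21.4 and 22.4 CPM in cKO, and Klc2 had 24.8 and 22.2 CPM in Control and 17.96 and 23.6 CPM in cKO. Klc3 (chr7:19128362-19138029) is the light chain best known from sperm, and it had estimated counts of 123 and 70.3 in Control and 2.60 and 43.1 in cKO. Its log2 fold change of -2.24 ± 0.93 was the largest of the 58, with an unadjusted p of 0.0453 and an edgeR adjusted p of 0.45. Without 1 library in turn it ran from -4.90 to -1.38. Klc3 overlaps Ercc2 on the other strand, which had more counts, and the library kit is not stated to keep the strand, so reads of the 2 genes may not be separable.

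Shares within a family do not depend on scaling between libraries. Klc1 made up 94.0% and 93.9% of Klc1, Klc2 and Klc4 TPM in Control and 95.1% and 94.4% in cKO. Kif5c made up 47.2% and 46.9% of kinesin-1 heavy chain TPM in Control and 44.6% and 49.5% in cKO. Kif5b and then Kif5a followed in TPM in every library. In estimated counts, which are not divided by length, Kif5a came before Kif5b in every library. Their count shares were 21.9% to 24.4% for Kif5a and 17.9% to 21.5% for Kif5b. Kif3a made up 73.0% and 75.2% of kinesin-2 TPM in Control and 72.2% and 70.6% in cKO, with Kif3c at 21.4% and 19.9% in Control and 22.8% and 23.3% in cKO. The groups did not overlap for 7 of 19 TPM shares, those of Klc1, Klc4, Kif3a, Kif3c, Dynll1, Dynll2 and Dynlt1a. However, 2 against 2 libraries give no exact permutation p below 0.333. That value is also the fraction of shares expected not to overlap if the libraries were exchangeable. The Dynll1 and Dynll2 shares are complementary, so they give the same result. In shares of estimated counts Kif3a made up 46.5% to 47.3% of kinesin-2 and Kif3c 38.9% to 41.1%. The Kif3c groups overlapped in these count shares. Klc1 and Kif3a were the leading genes of their families in all 4 libraries, while Klc2 and Klc4 exchanged places between libraries of one group. Dync1i1 held 64.6% and 70.5% of dynein-1 intermediate chain TPM in Control and 70.1% and 71.2% in cKO. Dynll1 held 97.4% to 97.8% of Dynll TPM.

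**Figure D3:**
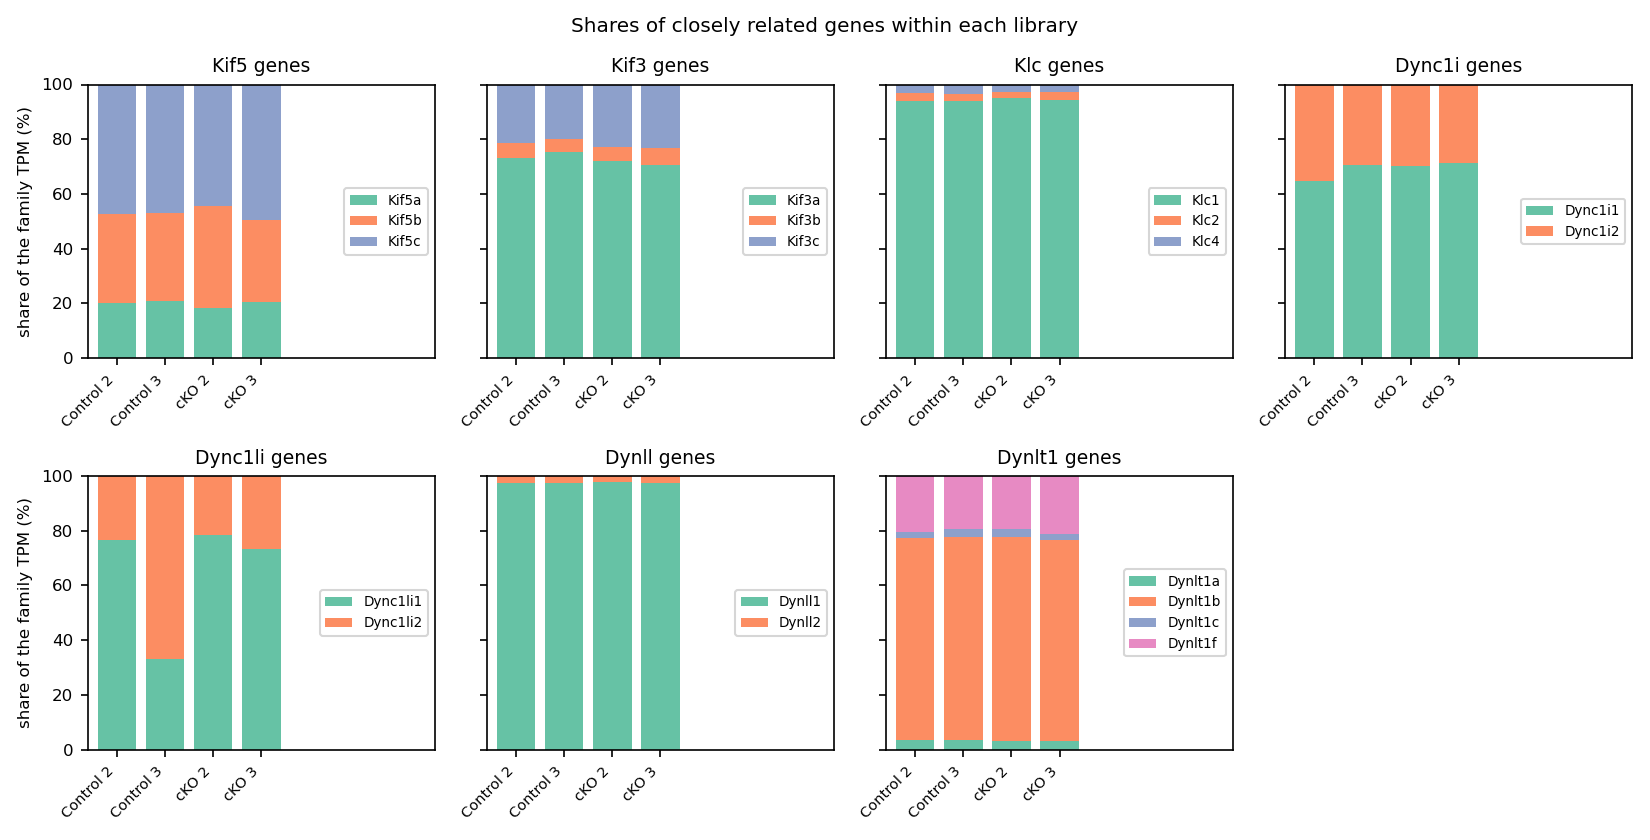
Share of each gene in the summed TPM of its family, 1 bar per library, for 7 families of closely related motor genes. Bars of a family look alike across libraries, with the exception of the dynein-1 light intermediate chains, where Dync1li1 holds 33.1% in Control 3 and 73.3% to 78.6% in the other libraries.

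Mitotic kinesins had the lowest median log2 fold change of the 7 role groups, -0.45 over 10 tested genes, 8 of them negative. None passed the test. Their summed level was 94.0 and 107 CPM in Control and 88.3 and 63.8 CPM in cKO. Markers of cycling cells had a median of 0.03 over 15 genes, with sums of 271 and 282 CPM in Control and 291 and 251 CPM in cKO, and the lowest sum of both lists was that of cKO 3. The sum of intermediate progenitor markers was higher in both cKO libraries, as given above. Of 5 tested, 4 had positive differences and 1, Btg2, a negative one. Sstr2 was the largest part of that sum, with 62.2 and 58.8 CPM in Control and 109 and 118 CPM in cKO. The part of these lists in the kinesin values was not tested. Kif22, a chromosome-arm motor that pushes chromosomes toward the spindle equator (chr7:126626901-126641643), had the smallest p of all motor genes. It had 29.4 and 29.9 CPM in Control and 16.4 and 18.3 CPM in cKO, groups that did not overlap on this scale or in TPM. The log2 fold change was -0.77 ± 0.20 with an interval from -1.25 to -0.30, an unadjusted p of 0.00605 and an edgeR adjusted p of 0.325. Without 1 library in turn, the log2 fold change ran from -0.86 to -0.69.

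Kif2c, which depolymerises microtubule ends at centromeres (chr4:117016836-117039836), had 8.96 and 14.6 CPM in Control and 6.32 and 4.73 CPM in cKO. Its log2 fold change was -1.09 ± 0.36 (unadjusted p 0.0179, edgeR adjusted p 0.398). Kif15, a spindle motor that can partly replace Kif11 (chr9:122780111-122847798), went the other way, with 67 and 46.0 estimated counts in Control and 162 and 125 in cKO. The log2 fold change of Kif15 was 1.28 ± 0.43 (edgeR adjusted p 0.399). Its TPM did not show the same order: 3.48 and 4.25 in Control and 3.96 and 2.54 in cKO, so the direction held for counts and not for TPM. Kif20b, a motor of the midbody and of cytokinesis in cortical progenitors (chr19:34899761-34953145), had 4.33 and 3.60 CPM in Control and 1.58 and 1.45 CPM in cKO, with a log2 fold change of -1.39 ± 0.49 (edgeR adjusted p 0.409). It was named after its values were seen. In TPM its groups overlapped. Kif23 and Kif20a, both needed for cytokinesis, had log2 fold changes of -0.51 ± 0.40 and -0.40 ± 0.26. Kif11, the main spindle-bipolarity motor and also named after its values were seen, had 12.3 and 11.8 CPM in Control and 21.0 and 6.35 CPM in cKO, so both extremes came from cKO. Kif14 had at most 10 counts and was not tested.

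The remaining kinesins act at microtubule ends, in cilia or elsewhere, and 6 of 11 had positive and 5 negative differences, with a median of 0.04. Kif21b, a neuronal motor that pauses microtubule growth, was the most abundant at 23.5 and 20.04 TPM in Control and 24.3 and 24.5 TPM in cKO. Its scaled counts of 159 and 143 CPM in Control and 183 and 164 CPM in cKO did not overlap (log2 fold change 0.20 ± 0.13, edgeR adjusted p 0.602). Kif2a, a microtubule depolymerase that limits axon branches, and Kif21a, a relative of Kif21b that limits microtubule growth at the cell cortex, had log2 fold changes of -0.10 ± 0.19 and 0.05 ± 0.17. Kif7, the ciliary-tip regulator of Hedgehog signalling (chr7:79347846-79365468), had 9.57 and 9.80 CPM in Control and 4.74 and 5.47 CPM in cKO. Control libraries agreed closely and both cKO libraries were lower, in CPM and in TPM. Kif7 overlaps Ticrr and a non-coding gene on the other strand, both with fewer counts, so some of its reads may not be separable. The log2 fold change of Kif7 was -0.92 ± 0.31 with an interval from -1.65 to -0.19 (unadjusted p 0.02, edgeR adjusted p 0.399). Kif27, its relative, was near the floor at 1.12 and 2.64 CPM in Control and 0.685 and 0.963 CPM in cKO. Kif19a, a motor of motile cilia named after its values were seen, had 22 and 2 counts in Control and 13 and 3 in cKO. Ciliated and choroid plexus markers summed to 830 and 31.9 CPM in Control and 387 and 29.9 CPM in cKO. Most of that sum was Ttr in Control 2 and cKO 2. Single markers were also highest in Control 2 and cKO 2, except for Foxj1, Pifo, Ccdc153 and Kl. Foxj1 had 8.30 and 9.09 CPM in Control and 13.2 and 8.89 CPM in cKO. The part of these markers in the Kif19a counts was not tested.

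Dynein-1, the minus-end motor of axons and of nuclear movement in migrating neurons, had positive differences in 4 of its 5 larger chains. Dync1h1, the heavy chain that holds the ATPase ring (chr12:110567886-110633379), had 207 and 204 CPM in Control and 243 and 280 CPM in cKO. The groups did not overlap, and the interval of its log2 fold change of 0.35 ± 0.12 ran from 0.07 to 0.63 (unadjusted p 0.021, edgeR adjusted p 0.399). Its partner chains had differences closer to 0. Dync1i1, the neuronal intermediate chain that binds dynactin, had 264 and 330 CPM in Control and 285 and 335 CPM in cKO, with a log2 fold change of 0.06 ± 0.15. The log2 fold changes were -0.05 ± 0.13 for Dync1i2, the ubiquitous intermediate chain, and 0.05 ± 0.12 for Dync1li1, a light intermediate chain that binds cargo adaptors. A difference in the heavy chain beyond those of its partners was not tested.

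Dync1li2, the other light intermediate chain (chr8:105144312-105169679), had different orders of libraries in counts and in TPM. It had 83.9 and 91.8 CPM in Control and 73.9 and 114 CPM in cKO, with a log2 fold change of 0.10 ± 0.21. Its TPM were 27.2 and 181 in Control and 22.1 and 37.5 in cKO, so Control 3 alone stood far above the rest. Count divided by TPM, scaled by library, gives the transcript length that the estimate assumed. That length was 5521, 5627 and 5718 bases in Control 2, cKO 2 and cKO 3 and 901 bases in Control 3, against a deposited gene length of 4627. The ratio of highest to lowest was 6.34, and of 10964 genes with enough counts only 18, or 0.164%, exceeded a ratio of 3. In scaled counts, which do not use this length, Control 3 lay within the range of the others. Only 41 motor genes had enough counts for this comparison. Beside Dync1li2, Kif23, Dync2i1 and Kif4 of these exceeded a ratio of 1.5, as did 4.63% of all genes compared. Kif15 and Kif20b, whose libraries were also ordered differently in counts and in TPM, had too few counts to be compared.

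Dynein-2 drives retrograde transport in cilia. Dync2i2, an intermediate chain, was its most abundant transcript at 97.7 and 108 TPM in Control and 88.5 and 100 TPM in cKO. Its scaled counts of 110 and 128 CPM in Control and 110 and 104 CPM in cKO gave a log2 fold change of -0.15 ± 0.13. Dync2h1, the ciliary heavy chain, had 15.3 and 14.7 CPM in Control and 8.90 and 17.0 CPM in cKO, so the cKO libraries lay on either side of Control. Dync2li1 and Dync2i1 had log2 fold changes of -0.21 ± 0.23 and 0.13 ± 0.27, and no dynein-2 chain had an unadjusted p below 0.05.

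Dynein light chains are small dimers that bind the intermediate chains and stabilise the motor. Dynll1 (chr5:115435169-115439058), a hub protein with many partners outside dynein, had 1241 and 1058 TPM in Control and 1339 and 1265 TPM in cKO. In scaled counts the groups did not overlap, at 471 and 424 CPM in Control and 545 and 477 CPM in cKO (log2 fold change 0.19 ± 0.11, edgeR adjusted p 0.582). Its paralog Dynll2 had 57.1 and 52.2 CPM in Control and 58.6 and 52.0 CPM in cKO. The coding sequences of both differ at 51 of 270 bases (81.1% identical). The first 60 bases are shown from the GENCODE M21 transcripts on GRCm38, with capitals at the 9 differing bases, to show how often this pair differs.

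Dynll1: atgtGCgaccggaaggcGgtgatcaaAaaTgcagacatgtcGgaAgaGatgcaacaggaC
Dynll2: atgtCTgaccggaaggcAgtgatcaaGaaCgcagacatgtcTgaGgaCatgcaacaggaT

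The Dynlt1 copies are the opposite case. Dynlt1a, Dynlt1b, Dynlt1c and Dynlt1f lie on chromosome 17, and the pseudogene Dynlt1-ps1 on chromosome 6. Their coding sequences have 342 bases, and those of Dynlt1a, Dynlt1c, Dynlt1f and the pseudogene are identical, while Dynlt1b differs by 1 base, A21C counted from the A of the start codon with the base of Dynlt1b first. The first 90 bases are shown from the same transcripts, with the differing base in capitals.

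Dynlt1b: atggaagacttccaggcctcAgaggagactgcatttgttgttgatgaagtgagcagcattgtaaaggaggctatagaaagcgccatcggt
Dynlt1-ps1: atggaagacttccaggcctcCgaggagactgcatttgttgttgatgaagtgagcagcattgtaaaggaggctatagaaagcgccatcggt

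Reads inside the coding sequence that cover that base tell Dynlt1b from the other copies, but not those copies from each other. Reads can otherwise be assigned to one copy only where they reach the flanking sequence, so the values of single copies are uncertain. As deposited, Dynlt1b had 352 and 348 CPM in Control and 398 and 248 CPM in cKO, Dynlt1f 103 and 94.6 CPM in Control and 109 and 75.9 CPM in cKO. Dynlt1a had 85.2 and 90.9 CPM in Control and 83.0 and 56.6 CPM in cKO, and Dynlt1c had 43.3 and 43.1 CPM in Control and 51.5 and 31.97 CPM in cKO. All 4 were lowest in cKO 3, and the log2 fold changes ran from -0.34 to -0.05. The pseudogene row held 127 and 107 CPM in Control and 173 and 112 CPM in cKO, which is 15.6% to 21.4% of the counts of the 5 copies. Summing the 5 copies, an alternative chosen after seeing the data, gave 711 and 683 CPM in Control and 814 and 525 CPM in cKO, with a log2 fold change of -0.06 ± 0.19 and an interval from -0.50 to 0.38 (edgeR adjusted p 0.939).

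Of the other light chains, Dynlrb1 (chr2:155078453-155092197), a roadblock chain, had 363 and 354 CPM in Control and 400 and 324 CPM in cKO, with a log2 fold change of 0.01 ± 0.13. Dynlt2b, a Tctex-type chain of dynein-2, had 14.9 and 17.6 CPM in Control and 12.5 and 11.2 CPM in cKO. These groups did not overlap, with a log2 fold change of -0.46 ± 0.25 and an edgeR adjusted p of 0.545. Dynlt2a1, Dynlt2a2, Dynlt2a3 and Dynlt5 had at most 10.4 counts in any library and were not tested. Counts that were not whole, as arise when reads are divided between genes, occurred in 23 motor genes, and 16 overlap a gene with over 100 counts. Besides Klc3 and Kif7, these include Kif20a, which overlaps Cdc23, and Kif17, which overlaps Sh2d5. Both overlapping genes had more counts, so reads of these pairs may not be separable either.

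The partners of these motors were read from lists of known subunits and adaptors, and none passed the edgeR test. Dynactin, the complex that makes dynein-1 processive, had 12 subunits tested, 4 positive and 8 negative, with a median of -0.02. Among dynein regulators and adaptors 8 of 18 were positive and 10 negative. Pafah1b1, which encodes the dynein regulator LIS1, had 90.7 and 86.0 CPM in Control and 104 and 116 CPM in cKO (log2 fold change 0.31 ± 0.13, edgeR adjusted p 0.45). Hap1, a huntingtin partner that links dynactin and kinesin to vesicles, had 143 and 110 CPM in Control and 47.3 and 81.7 CPM in cKO, a log2 fold change of -0.97 ± 0.26. Its adjusted p was 0.328 with edgeR and 0.00581 with DESeq2. The striatal marker sum given above was also lower in both cKO libraries, and its part in the Hap1 value was not tested.

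Kinesin adaptors were balanced, with 14 positive and 15 negative of 29 and a median of -0.01. Clstn2, a calsyntenin of the family that binds kinesin light chains, had 53.6 and 68.8 CPM in Control and 98.1 and 106 CPM in cKO. Its log2 fold change of 0.74 ± 0.16 had an adjusted p of 0.28 with edgeR and 0.010 with DESeq2. Of the kinesins whose symbols carry no plain number, Kifc2, a minus-end-directed kinesin of neurons, had 90.1 and 89.5 CPM in Control and 57.9 and 67.3 CPM in cKO, a log2 fold change of -0.52 ± 0.14 (edgeR adjusted p 0.338). Stard9, a mitotic kinesin, had 2.65 and 2.49 CPM in Control and 7.58 and 4.69 CPM in cKO, a log2 fold change of 1.25 ± 0.44 (edgeR adjusted p 0.405). The axonemal dyneins of motile cilia were low, and 7 of 13 were positive and 6 negative.

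The cKO libraries differed from each other by transcript length. Among the 32 motor genes with at least 20 CPM, the log2 ratio of cKO 3 to cKO 2 had a Spearman correlation of 0.508 with deposited gene length. Its median was -0.18 for 8 genes under 2500 bases and 0.20 for 13 genes of at least 5000 bases. Over all 8037 genes at that level the correlation was 0.422, so the pattern was also present outside the motors. Between the Control libraries the correlation was -0.207 for the motors and -0.177 over all genes. The medians of the motors there were similar, at -0.075 under 2500 bases and -0.061 at 5000 bases or more. Over all genes the medians between the Control libraries were 0.049 under 2500 bases and -0.046 at 5000 bases or more. Between the cKO libraries the medians over all genes were -0.15 and 0.15. These are descriptions across genes, which share libraries and are not independent. Dynlt1b, one of the shortest, was lower in cKO 3 than in cKO 2, and Dync1h1, the longest, was higher, and the part of length in either genotype difference was not tested.

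**Figure D4:**
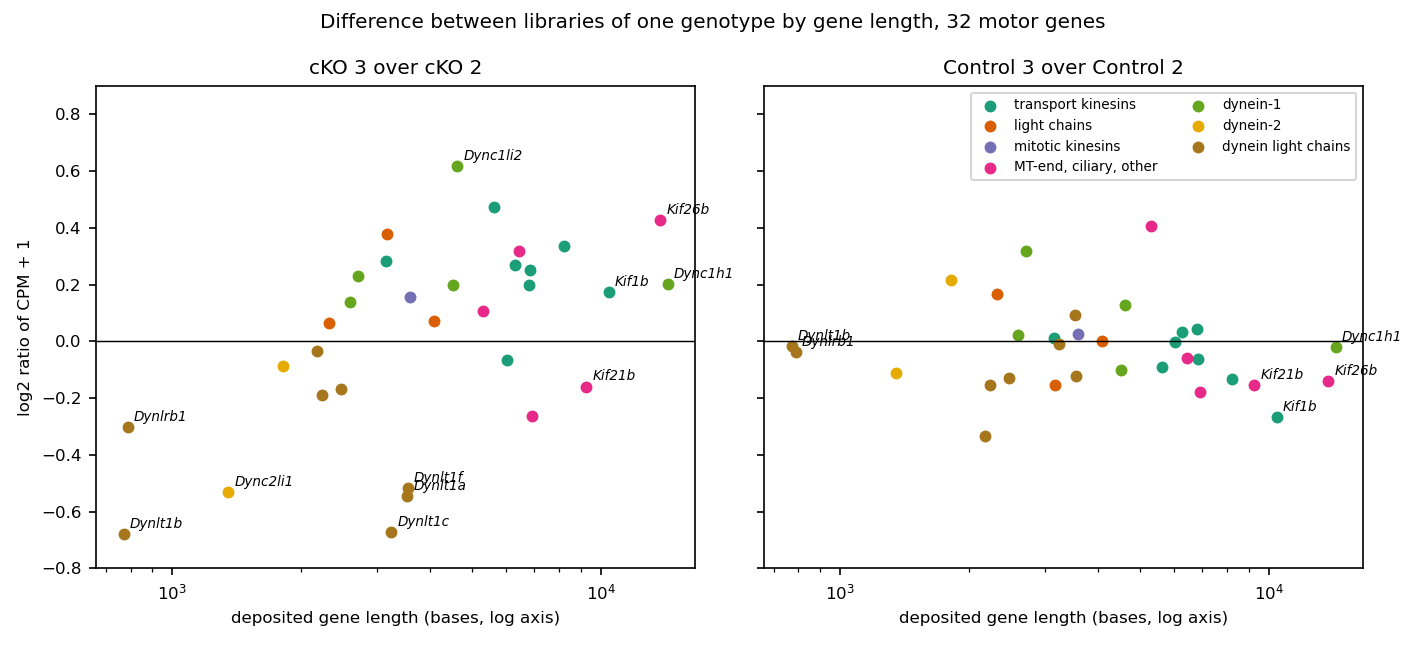
Log2 ratio of CPM + 1 between the libraries of one genotype against deposited gene length on a log axis, for the 32 motor genes with a mean of at least 20 CPM. In cKO most genes under 2500 bases, such as Dynlt1b, lie below 0 (Klc4 lies above it) and most genes over 5000 bases above it. The Control ratios have a weaker, negative rank correlation with length (-0.207), but similar medians for short and long genes (-0.075 and -0.061).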

How the data were processed

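Total RNA of postnatal day 1 cortex was made into libraries with SMART-Seq v4, per the labels' protocols. The deposited table holds, for each gene and library, an estimated count and TPM. The authors used DRAGEN and GRCm39, per the submitters' processing notes; the sources used here give no version, annotation or settings. Per the file headers, gene names, coordinates and 1 gene length per gene are those of the authors.

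Estimated counts were rounded, and rows with too few counts were removed with the default filter of edgeR 4.0.16 (R 4.3.3), which left 17017 of 55414 rows. The edgeR quasi-likelihood test compared cKO with Control, with TMM factors of 0.979 to 1.02, genotype as the only term, all 4 libraries and Benjamini-Hochberg adjustment over all genes at 0.05. CPM use the TMM-scaled totals. SE is the absolute log2 fold change over the square root of F, and intervals are 95%. Family shares were compared with exact two-sided permutation tests. Libraries of one group were not duplicates (chi-square per degree of freedom 12.8 and 27.7). Between 12.0% and 13.5% of rows held counts that were not whole.

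Members and lists were chosen with earlier results of these data known. Named genes are, per role group, up to 3 with the smallest p and up to 3 with the highest mean TPM, all Dynlt1 copies, members that missed the filter, and up to 3 per related list by p; the paralogs in the shares were also listed. Tested on simulated data for 17017 genes in this comparison, edgeR called 62 of 100 genes with a 2-fold difference. It called 96 of 100 with a 4-fold difference, and there were 2 false calls among 16817 unchanged genes. The changed genes were drawn only above a minimum mean CPM, so these shares do not cover low members such as Kif20b and Kif27. The simulated spread followed the trend with level, not that of each gene, and held no length pattern. Alternatives were RLE and upper-quartile factors, omitting the filter, a minimum mean CPM of 1, protein-coding genes only, robust shrinkage, limma-voom 3.58.1, DESeq2 1.42.0, a replicate block and each library left out.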

Additional observations from a re-analysis of the deposited data

How the results depend on the processing

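No motor gene was called in any of the 13 alternatives. Among all genes, 8 were called, 185 with DESeq2, 58 with no filter and 0 to 2 without 1 library. Motor genes at an unadjusted p below 0.05 numbered 7, and 2 to 10 without 1 library (3 without Control 2, 2 without Control 3). Fits without 1 library leave a group with a lone library, which is assumed to vary like the other group. With the replicate block there were 8, the added gene being Kif16b (p 0.0384), and 7 genes were called among all genes. The deviations of same-numbered libraries correlated at 0.0136, and the labels tie the numbers to nothing. The block changed no call of a motor gene. The median log2 fold change of motor genes was -0.11, with -0.13 under limma-voom, -0.15 with no filter, -0.088 with protein-coding genes, -0.071 with upper-quartile factors and -0.11 to -0.058 without 1 library.

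Signs were compared for 43 motor genes and 15 related ones: of 758 values under alternatives, 725 kept their sign. Hap1 and Clstn2 passed the threshold with DESeq2 only. Another sign appeared in 20 genes, all motor genes: Kif3b -0.0052 and Kif11 -0.045 with the replicate block, Dynlrb1 -0.00042 and Kif11 -0.12 with limma-voom, Kif5a 0.00345 and Klc1 0.018 with protein-coding genes, Kif5a 0.020 and Klc1 0.035 with upper-quartile factors, and Klc1 0.0029 at a mean CPM of at least 1.

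Without 1 library, log2 fold changes ran from -0.315 to 0.026 for Kif1a, -0.051 to 0.20 for Kif5c, -0.15 to 0.047 for Dync1i2, -0.25 to 0.24 for Kif3b, -0.14 to 0.16 for Dynlrb1, -0.091 to 0.23 for Dync1i1, -0.25 to 0.38 for Dync1li2, -0.76 to 0.18 for Dync2h1, -0.0225 to 0.12 for Dync1li1 and -0.16 to 0.11 for Kif5a. They ran from -0.071 to 0.098 for Dynll2, -0.043 to 0.032 for Klc1, -0.29 to 0.12 for Kif2a, -0.12 to 0.20 for Kif21a, -0.49 to 0.18 for Dynlt1b, -0.43 to 0.25 for Dynlt1c, -0.38 to 0.14 for Dynlt1f, -0.51 to 0.038 for Dync2li1, -0.39 to 0.011 for Klc2 and -0.92 to 0.80 for Kif11.

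Differences in family shares of TPM, in percentage points, took another sign in estimated counts for Kif5c (0.720), Kif3c (-0.397), Dync1li1 (-0.329), Dynlt1b (0.743) and Dynlt1c (0.439). Without 1 library they ran from -2.14 to 0.0267 for Kif5a, -2.49 to 4.62 for Kif5b, -2.48 to 2.46 for Kif5c, -0.207 to 0.823 for Kif3b, -0.767 to 0.0539 for Klc2, -0.594 to 42.9 for Dync1li1, -0.762 to 0.496 for Dynlt1b, -0.263 to 0.213 for Dynlt1c and -0.363 to 1.30 for Dynlt1f. The cause of these sign changes was not tested.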
